A study of Mus musculus with 4 samples.

Results

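The immediate early AP-1 and Egr genes are 10 genes chosen by symbol from the 32288 features of the count tables: *Fos*, *Fosb*, *Jun*, *Junb*, *Jund*, *Egr1*, *Atf3*, *Ier2*, *Dusp1* and *Zfp36*. All 10 were found, and each symbol matched 1 feature. Their levels were compared across cell types, libraries and conditions in single-cell RNA-seq of hindlimbs from mouse embryos at E14.5. Every embryo carried Gli1CreER, the Cre-dependent tdTomato reporter R26LSL-tdTom and the doxycycline-dependent allele TigreTRE-p21, on a SwissWebster background. The *Pan-Cart-p21 MOE* embryos (p21 hereafter) also carried Col2a1-rtTA, which drives the cell-cycle inhibitor p21 in a mosaic of chondrocytes, and the controls (Ctl) lacked it. Doxycycline was given to the dams of both groups from E12.5 and tamoxifen at E13.5, so that tdTomato marked the Gli1-lineage cells. Sorting by tdTomato gave the 4 libraries, whose labels name 2 collections: S1 (tdT+, collection 1), S2 (tdT-, collection 1), S3 (tdT+, collection 2) and S4 (tdT-, collection 2). Each library joined p21 and Ctl cells of opposite sex. The p21 cells were male and the Ctl cells female in S1 and S2, and the reverse held in S3 and S4, where the p21 cells came from a single embryo by the study's methods, although its account of the results describes several pooled embryos per sample. The condition of a cell was therefore read from its sex transcripts.

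Immediate early genes are transcribed within minutes of a stimulus from factors already present in the cell, with no new protein needed. FOS and JUN family proteins pair through leucine zippers to form AP-1, which binds short palindromic sites. EGR1 is a zinc finger factor, and DUSP1 and ZFP36 are brakes that dephosphorylate MAP kinases and destabilise AU-rich transcripts. In solid tissue the same genes answer growth factors, mechanical strain and the enzymes and warmth used to release cells. Here the limbs were held in Accumax for 25 min at 31 °C, and by the study's methods the cells released were then kept on ice. Only the remaining cartilaginous parts were held in collagenase, for about 90 min at 37 °C, before both parts were joined and sorted. A mitogen response and a response to dissociation cannot be told apart from the level of these transcripts alone.

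After filters on depth, genes detected, mitochondrial share, sex call and Scrublet score, 2768 cells remained, with a median of 16417 to 27252 unique molecular identifiers (UMIs) per cell across the libraries. They held 813 chondrocyte-like cells in 4 clusters (named from markers such as *Matn1*, *Epyc*, *Cytl1* and *Col10a1*) and 1955 other cells. A cluster was named only when its markers passed a rule set after the clusters had been seen. The 4 unnamed clusters numbered 7, 12, 14 and 21 had a chondrocyte marker among their 10 leading genes and were counted with the other cells. In S1 and S2 they held 5.56 and 6.93% of the p21 cells, beside 14.6 and 21.6% of the Ctl cells. In S3 and S4 the order was reversed, with 18.7 and 11.5% of the p21 cells beside 6.43 and 9.81% of the Ctl cells. The hypertrophic cluster was led by *Spp1*, *Comp* and *Col10a1*, and its endothelial marker score was above its hypertrophic one, with no endothelial marker among its 10 leading genes. The members, the genes correlated with them, the lists of other immediate early and heat shock genes, and the sex and transgene genes were kept out of the clustering. The other pathway lists described below were not kept out as lists, so their genes could take part in forming the clusters. No 2 libraries shared more than 1 kept cell barcode. Counts were summed over the cells of a class, library and condition, which gave 8 sums (pseudobulks) per class. The 8 came from only 4 embryo pools, each split into a tdT+ and a tdT- part, so p-values over them measure the spread between these sums and not between independent litters.

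The promoters of the members for which a window was found (8 of 10, all but *Ier2* and *Egr1*; RefSeq, GRCm38.p6, 250 bases before to 50 after the start) were searched for sites of the factors that act on such genes. The CRE core TGACGT, bound by CREB and ATF factors, was in 3 of the 8 windows (*Fos*, *Atf3* and *Dusp1*) and in 7.51% of 32851 mouse promoters of the same length, on either strand. The full palindrome TGACGTCA, which contains the core on both strands, was in *Dusp1* alone, against 1.79% of all promoters. The AP-1 site TGANTCA was in none of the 8 and in 7.81% of all. The CArG box, bound by serum response factor, was in *Zfp36* alone, against 1.63% of all. These 4 windows are given because they are the ones that hold such a match. Capitals mark the matches, which lie at bases -66 to -61 in *Fos*, -8 to -3 in *Atf3*, -191 to -186 and -143 to -136 in *Dusp1* and -58 to -49 in *Zfp36*, counted from the start.
Fos, chr12:85473640-85473939, plus strand: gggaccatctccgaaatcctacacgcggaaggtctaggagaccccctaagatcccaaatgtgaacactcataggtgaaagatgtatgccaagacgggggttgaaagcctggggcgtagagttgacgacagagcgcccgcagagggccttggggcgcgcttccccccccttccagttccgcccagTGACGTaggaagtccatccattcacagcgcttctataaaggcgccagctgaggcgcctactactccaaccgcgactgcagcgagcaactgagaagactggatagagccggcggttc
Atf3, chr1:191183284-191183583, minus strand: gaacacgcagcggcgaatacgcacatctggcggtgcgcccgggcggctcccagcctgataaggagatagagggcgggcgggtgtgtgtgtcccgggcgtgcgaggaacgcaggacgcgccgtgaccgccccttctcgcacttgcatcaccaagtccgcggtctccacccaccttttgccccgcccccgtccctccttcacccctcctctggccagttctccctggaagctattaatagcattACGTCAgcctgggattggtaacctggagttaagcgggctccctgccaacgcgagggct
Dusp1, chr17:26508423-26508722, minus strand: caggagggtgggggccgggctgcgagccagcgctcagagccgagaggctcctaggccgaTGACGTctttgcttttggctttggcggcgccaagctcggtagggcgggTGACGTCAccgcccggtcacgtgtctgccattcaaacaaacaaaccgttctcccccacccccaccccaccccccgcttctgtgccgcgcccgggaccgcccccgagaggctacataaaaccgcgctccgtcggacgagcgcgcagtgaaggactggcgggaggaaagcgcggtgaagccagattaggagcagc
Zfp36, chr7:28379179-28379478, minus strand: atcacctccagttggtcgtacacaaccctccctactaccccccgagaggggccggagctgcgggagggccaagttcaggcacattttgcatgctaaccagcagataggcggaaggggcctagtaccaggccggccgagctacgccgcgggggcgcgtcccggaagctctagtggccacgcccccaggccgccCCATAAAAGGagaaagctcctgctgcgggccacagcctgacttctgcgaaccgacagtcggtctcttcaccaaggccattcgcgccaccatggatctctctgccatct

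Several of the members were compact in form, but not all. In the GENCODE vM21 annotation *Jun*, *Junb*, *Jund* and *Ier2* had a single exon in their longest coding transcript, 4 of 10 members against 2.58% of the 12522 coding genes with at least 100 UMIs in the other cells. *Fos*, *Fosb*, *Atf3* and *Dusp1* had 4 exons each. The median gene span was 3852 bases in the members and 27220 in those genes, and *Atf3* (47744) and *Dusp1* (56539) lay above the latter. The pentamer ATTTA, the core of the AU-rich elements that ZFP36 binds, followed the coding part in 9 of 10 members, against 70.5% of those genes. It occurred 4 times in *Jun*, 3 times each in *Fos*, *Atf3*, *Dusp1* and *Zfp36*, and not at all in *Ier2*. The median was 2.89 ATTTA per kilobase of sequence after the coding part in the members and 1.34 in all genes compared.

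The chondrocyte-like cells held more transcripts of most members than the other cells of the same library. This is a description of the classes, with no test. By the study's methods only the cartilaginous parts went through the collagenase step, so cell class and time in warm enzyme cannot be told apart here. In CPM (UMIs scaled by the total of the cells), *Fos* was at 1500, 1640, 1743 and 1852 in the chondrocyte-like cells of S1 to S4, and at 619, 899, 656 and 931 in the other cells. The ratio within a library averaged 2.22 ± 0.384 (SD, n = 4 libraries). *Egr1* ran from 1554 to 1830 CPM in chondrocyte-like cells and from 551 to 816 in other cells, a ratio of 2.52 ± 0.613. For *Jun* the ratio was 2.69 ± 1.06, and S1 stood above the others at 4.26. The libraries of the classes did not overlap in any of these 3 genes, nor in *Zfp36*, *Junb*, *Ier2*, *Fosb* and *Jund*. The share of all genes without such overlap was not taken, so this is no result about the members. *Zfp36* had a ratio of 2.35 ± 0.839, *Junb* 1.99 ± 0.373, *Ier2* 1.71 ± 0.352, *Fosb* 1.68 ± 0.279 and *Jund*, the JUN family member known for steady expression, 1.33 ± 0.272. *Dusp1*, at 1.02 ± 0.216, was above 1 in S1 and S3 and below 1 in S2 and S4. *Atf3*, a stress-induced repressor of the ATF family, ranged from 0.477 in S2 to 2.44 in S1 and had no common direction. The heat shock genes *Hspa1a* and *Hspa1b*, which are not members, had ratios of 3.4 ± 0.85 and 3.6 ± 1.1.

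The difference between the classes was also present at equal depth. When every cell was thinned to 3000 UMIs, a chondrocyte-like cell held a median of 21 UMIs from the 10 members together (quartiles 13 and 32, 784 cells). One of the other cells held 11 (quartiles 6 and 18, 1883 cells). At that depth the median cell had 6 of the 10 members detected among chondrocyte-like cells and 5 among the others, and 1 and 20 cells respectively had none. Free RNA can give a UMI to a cell that does not express a gene, and the share of such UMIs was not measured here. The 10% of cells with the most member UMIs held 24.1% of them in the chondrocyte-like class and 27.3% in the other. Within libraries *Fos* and *Egr1* varied together across chondrocyte-like cells (mean Pearson r = 0.48 over 4 libraries, from 0.432 to 0.533), as did *Fos* and *Junb* (0.397). *Ier2* and *Dusp1* did not (-0.0048). These correlations are across cells of shared libraries and are descriptive.

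**Figure D1:**
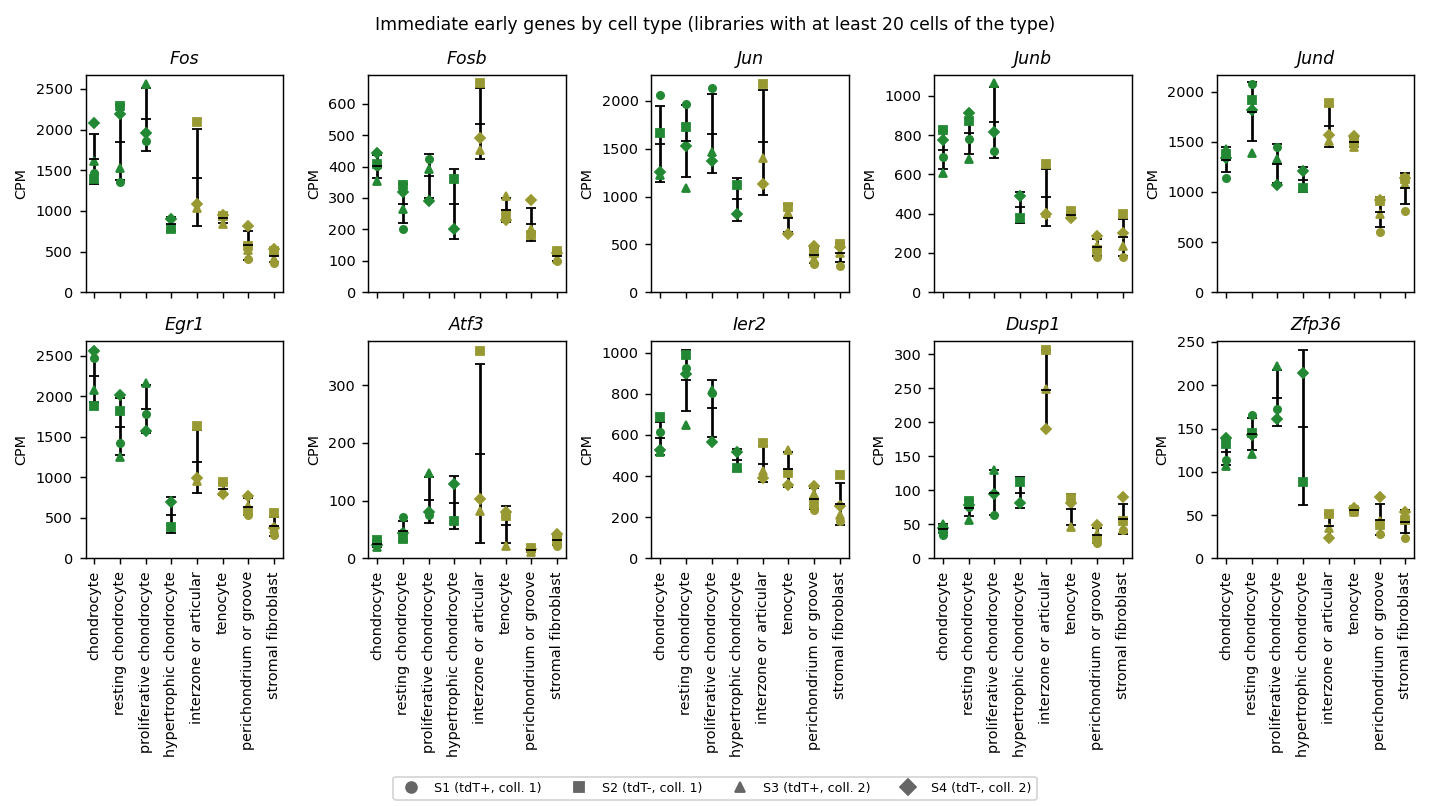
Levels of the 10 genes in CPM (vertical axes, linear, from 0) by cell type. Each point is 1 library with at least 20 cells of the type, its shape gives the library, green marks cartilage clusters and olive the others, and bars give the mean ± SD. *Fos* and *Egr1* had their 3 highest means in the non-hypertrophic chondrocyte-like clusters, *Jun* was as high in interzone-like cells (1568 CPM) as in the *Sox5* and *Sox6* cluster (1549), and *Dusp1* was highest in the interzone-like cells at 248 CPM.

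Among the named types, the members fell into different orders, with the order taken over 8 types and the unnamed cells. *Fos* was highest in proliferative chondrocyte-like cells (2126 ± 385 CPM, n = 3 libraries), then in resting chondrocyte-like cells (1842 ± 464, n = 4) and in chondrocyte-like cells led by *Sox5* and *Sox6* (1636 ± 309, n = 4). The libraries of these types overlapped. *Fos* was lowest in stromal fibroblast-like cells (451 ± 81.8, n = 4), just under perichondrium- or groove-like cells (575 ± 176). *Egr1* led in the *Sox5* and *Sox6* cluster (2247 ± 322, n = 4) and fell to 538 ± 218 (n = 2) in hypertrophic chondrocyte-like cells, where *Fos* was at 841 ± 90.1.

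The interzone-like cells, which take part in joint formation, had another order. *Dusp1* was highest there, at 248 ± 57.5 CPM (n = 3), with no overlap with the next type (96.8 ± 22.7 in hypertrophic chondrocyte-like cells). *Fosb* was highest there too, at 536 ± 113, again with no overlap with the next. *Atf3* averaged 181 ± 154 and overlapped with its neighbours. *Zfp36* was lowest in the same cells, at 37 ± 14.0 CPM. *Jund* ran from 802 ± 148 in perichondrium- or groove-like cells to 1800 ± 296 in resting chondrocyte-like cells. Immune, muscle and osteoprogenitor-like cells reached 20 cells in 1 library each. In S4, *Egr1* was at 1065 CPM in 43 immune-like and 1077 in 30 muscle-like cells, and in S3 it was at 317 in 37 osteoprogenitor-like cells.

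Over 30 pseudobulks of named type and library, and 8998 genes with a mean of at least 10 CPM, the non-members closest to the mean standardized level of the 10 members were *Sertad1* (Pearson r = 0.925), *4930523C07Rik* (0.909), *Csrnp1* (0.908), *Klf10* (0.908) and *Id4* (0.907). The members themselves ranged from 0.66 for *Dusp1* to 0.951 for *Fos*. Each member is part of the mean it is set against, which raises its r, so these values cannot be compared with those of the non-members. Pseudobulks of a library share their depth, so these are descriptions.

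Transcripts of the transgene were checked first in the comparison of conditions. *WPRE*, a stabilising element carried by both the p21 and the tdTomato transgenes, was at 1095, 1031, 1865 and 1158 CPM in p21 chondrocyte-like cells of S1 to S4 and at 568, 89.3, 490 and 60.4 in Ctl. It therefore reports both transgenes, and among Ctl sums the tdT+ ones (S1 and S3) were the higher. The groups did not overlap, and the difference was a log2 fold change of 2.62 ± 0.40 (SE, edgeR quasi-likelihood, adjusted p = 0.01). In the other cells it was 0.90 ± 0.37 (adjusted p = 0.738). By collection it was 0.02 ± 0.38 in collection 1 and 1.59 ± 0.37 in collection 2 of these cells. That difference was not called (edgeR interaction of condition and collection, adjusted p = 0.423). The other cells of collection 2 can therefore not be taken as free of the transgene. *Cdkn1a*, the gene of p21, was at 56.0 to 65.7 CPM in p21 and 21.8 to 101.9 in Ctl chondrocyte-like cells, so the groups overlapped (0.21 ± 0.27, adjusted p = 0.842). The paper states that reads of the p21 transgene fell mostly on *WPRE* in this assay. *Cdkn1a* counts are therefore not a measure of the transgene.

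In chondrocyte-like cells 8 of the 10 members had a lower fitted level in p21 than in Ctl cells, and none passed an adjusted p of 0.05. All genes tested gave 91 calls among 11071, or 0.822% (14 higher and 77 lower). The median log2 fold change was -0.26 over the members and 0 over all genes. At an unadjusted p under 0.05, 4 members were lower and none higher (*Ier2*, *Egr1*, *Fos* and *Atf3*), beside 6.36% of all genes lower. That dissociation genes tend to be lower in p21 was known from earlier results of these data, so the direction is not independent evidence.

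*Fos* showed the cleanest separation. Its 4 p21 values were 1253, 1622, 1581 and 1663 CPM in S1 to S4, and its Ctl values were 1761, 1671, 2496 and 2435. It was lower in p21 in 4 of 4 libraries and the groups did not overlap, with S2 the closest pair. Its log2 fold change was -0.45 ± 0.14 (SE, unadjusted p = 0.00551, adjusted p = 0.186 by edgeR). *Fos* was the 1 member of 10 without overlap in that direction, beside 3.75% of all genes.

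*Egr1* was at 1353, 1531, 1700 and 1678 CPM in p21 and at 2353, 1587, 2097 and 2184 in Ctl. It was lower in 4 of 4 libraries, though the Ctl value of S2 lay within the p21 range (-0.39 ± 0.12, adjusted p = 0.181). *Ier2*, a small nuclear protein, was at 631, 779, 550 and 542 CPM in p21 and at 847, 776, 927 and 787 in Ctl. It was lower in 3 of 4 libraries, and the exception was S2 (-0.42 ± 0.12, adjusted p = 0.15). *Junb* was lower in 4 of 4 libraries by a smaller amount, with 657 to 775 CPM in p21 and 734 to 854 in Ctl (-0.14 ± 0.08, adjusted p = 0.588).

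*Dusp1* and *Zfp36* feed back on MAP kinase signalling and on mRNA decay, and neither passed. Their difference from *Fos* was not tested. *Dusp1* ranged from 67.8 to 78.6 CPM in p21 and from 39.3 to 103 in Ctl (-0.10 ± 0.21), and was lower in p21 in 3 of 4 libraries. *Zfp36* ranged from 135 to 154 CPM in p21 and from 112 to 187 in Ctl (0.06 ± 0.14), and was lower in p21 in 1 of 4. *Fosb* (-0.03 ± 0.10) and *Jund* (0.00 ± 0.13) had fitted differences under their errors.

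**Figure D2:**
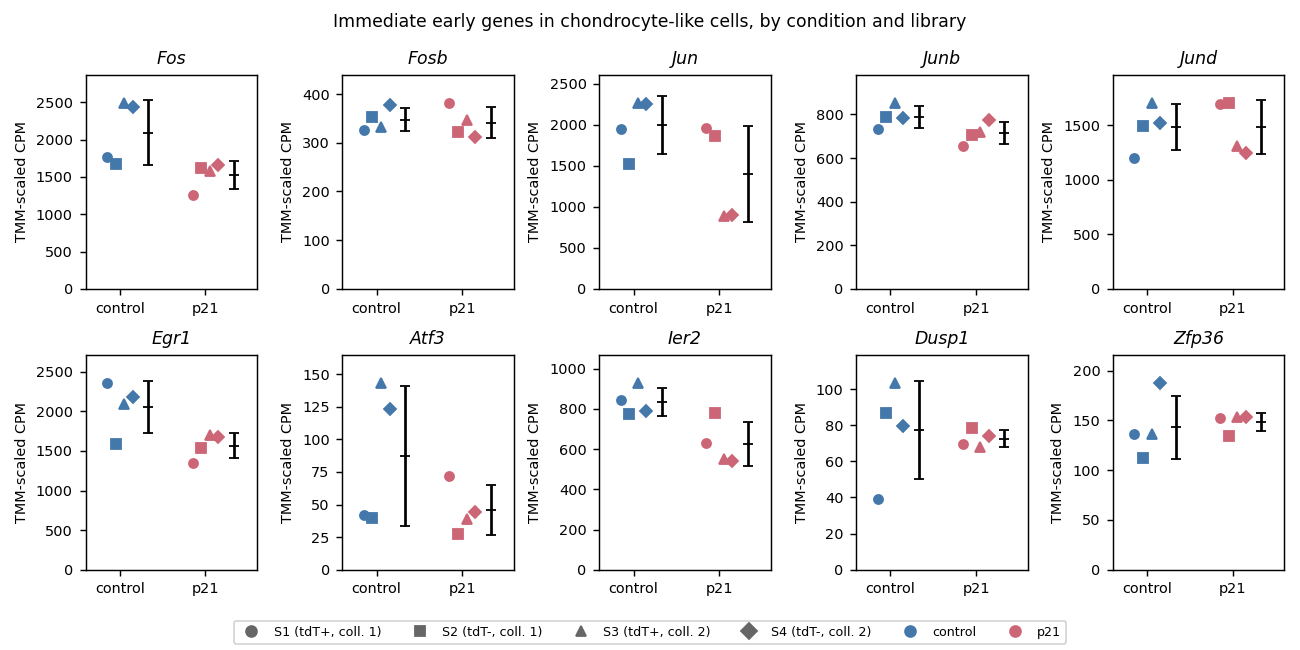
Levels in chondrocyte-like cells, in CPM scaled by the trimmed mean of M values (TMM) on linear axes from 0. Each point is 1 library, its shape gives the library and its colour the condition (blue control, red p21), and bars give the mean ± SD of the 4 libraries. *Fos* was the gene whose groups did not overlap, and *Jun* split within the p21 group.

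The p21 difference in *Jun* was not the same in the 2 collections. *Jun* was at 1956 and 1859 CPM in the p21 cells of S1 and S2, beside 1951 and 1517 in Ctl. In S3 and S4 it was at 883 and 906 CPM in p21, beside 2271 and 2249 in Ctl. The log2 fold change was 0.14 ± 0.10 (SE) in collection 1, with S1 nearly level, and -1.34 ± 0.10 in collection 2. The difference, collection 2 minus collection 1, was -1.48 ± 0.15 (edgeR interaction of condition and collection, adjusted p = 0.00107). Of the 10 members it was the 1 called, beside 0.145% of all genes (16 of 11071). At an unadjusted p under 0.05 there were 5 members, beside 8.48% of all genes. Each condition of a collection is 1 embryo pool, and its tdT+ and tdT- parts stand as the replicates, so this p does not cover the spread between pools. The interaction was fitted after the values of the libraries had been seen. With each pseudobulk left out in turn the difference stayed between -1.66 and -1.32, with adjusted p from 0.00131 to 0.021.

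Collection, embryo pool and the sex of the p21 cells move together in this contrast and cannot be told apart. *Atf3* was at 38.8 and 44.1 CPM in p21 and 143 and 123 in Ctl of S3 and S4, whereas p21 was higher in S1 (72.2 beside 42.2) and lower in S2 (27.4 beside 39.9). Its difference between collections was -2.01 ± 0.39, with an adjusted p of 0.106, and of 0.00512 without the p21 cells of S2. *Jund* was higher in p21 in S1 and S2 and lower in S3 and S4 (-0.68 ± 0.16, adjusted p = 0.188). For the 7 others the difference ran from -0.58 for *Dusp1* to 0.10 for *Egr1*, with adjusted p of at least 0.511. In the other cells no difference between collections was called (0.094% of all genes, 13 of 13826). At an unadjusted p under 0.05 there were 3 members, all with a higher effect in collection 2 (*Fosb*, *Junb* and *Zfp36*), beside 9.62% of all genes, and *Jun* was at -0.26 ± 0.20.

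The cell subtypes of collection 2 are given for *Jun* as a description. Where a type had at least 20 cells of both conditions in S3 or S4, the ratio of p21 to Ctl *Jun* CPM was 0.329 in resting, 0.338 in proliferative and 0.429 in hypertrophic chondrocyte-like cells. It was 0.499 in S3 and 0.425 in S4 in the *Sox5* and *Sox6* cluster. Outside cartilage it lay between 0.551 and 0.674 in tenocyte-like, stromal fibroblast-like and perichondrium- or groove-like cells. In the unnamed cells *Jun* was at 399.5 CPM in p21 and 441.9 in Ctl in S3, and at 627.9 and 1152 in S4. In collection 1, where S1 alone had enough cells, the ratio among the named types was 0.831 in perichondrium- or groove-like and 1.84 in stromal fibroblast-like cells. At an equal depth of 3000 UMIs a chondrocyte-like cell held a mean of 6.09, 6.53, 2.81 and 2.60 *Jun* UMIs in the p21 cells of S1 to S4 and 6.72, 4.33, 7.16 and 6.44 in Ctl, so the p21 cells of S3 and S4 were again the lowest.

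**Figure D3:**
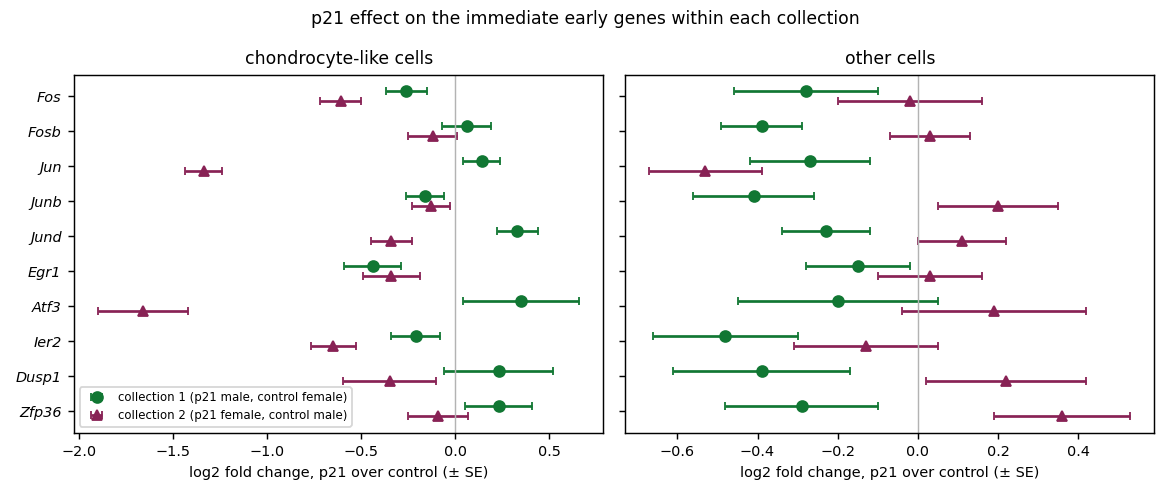
Log2 fold change of p21 over control (horizontal axes, ± SE) in each collection, for chondrocyte-like cells (left) and other cells (right). Green circles are collection 1 and purple triangles collection 2. *Jun* and *Atf3* lay at -1.34 and -1.66 in collection 2 of chondrocyte-like cells and at 0.14 and 0.35 in collection 1.

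In the other cells, 9 of 10 members had a lower fitted level in p21, and none passed an adjusted p of 0.05, beside 1 call among 13826 genes (0.00723%, while 905 genes had an unadjusted p under 0.05). The median log2 fold change was -0.08 over the members and 0 over all genes. At an unadjusted p under 0.05, 2 members were lower, beside 2.52% of all genes, and DESeq2 and limma-voom called no member. *Jun* had the lowest p. It was at 449, 661, 441 and 548 CPM in p21 and at 457, 928, 577 and 877 in Ctl, lower in 4 of 4 libraries with overlapping groups (-0.40 ± 0.11, adjusted p = 0.635). *Ier2* was next (-0.30 ± 0.14, adjusted p = 0.761). The other 8 ran from -0.16 ± 0.11 for *Fosb* to 0.09 ± 0.17 for *Zfp36*.

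The p21 effect on the members was not shown to differ between the classes. The difference, chondrocyte-like minus other cells, was largest for *Atf3* (-0.75 ± 0.66), followed by *Egr1* (-0.33 ± 0.23) and *Fos* (-0.29 ± 0.25). Every member had an adjusted p of at least 0.769 by edgeR, beside 0 calls among 13573 genes (0%), and 0 members at an unadjusted p under 0.05, beside 8.1% of all genes. By DESeq2 38 genes and by limma-voom 6 genes were called, and no member by either.

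The clearest difference in the members was between the sorted fractions outside cartilage. In the other cells all 10 had a lower fitted level in tdT+ than in tdT- cells, with a median log2 fold change of -0.62 beside -0.01 for all genes. *Atf3*, *Jun*, *Egr1*, *Dusp1* and *Zfp36* passed the test and fell, 5 of 10 members beside 1.68% of all genes (232 of 13826). In 7 members the 4 tdT+ and 4 tdT- values did not overlap, beside 4.6% of all genes in that direction. For each of the 10, tdT+ was lower in 4 of 4 embryo pools. The p21 and Ctl pools of a collection shared the same tdT+ library (S1 or S3) and the same tdT- library (S2 or S4). The 4 pools are therefore not independent, and fraction and library cannot be told apart. At an unadjusted p under 0.05 all 10 were lower, beside 8.63% of all genes.

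*Atf3* fell most. It was at 24.4 and 22.8 CPM in the p21 and Ctl cells of S1 and at 28.8 and 22.6 in those of S3. In the tdT- cells it was at 65.6 and 85.9 in S2 and at 48.5 and 47.8 in S4. No tdT+ value reached a tdT- value (-1.29 ± 0.19, adjusted p = 0.0135). *Dusp1* was at 40.3, 48.6, 68.3 and 55.4 CPM in the tdT+ sums in the same order and at 88.6, 121, 88.5 and 80.9 in the tdT- sums, again apart (-0.82 ± 0.17, adjusted p = 0.0457). *Egr1* was at 540, 538, 699 and 584 CPM in tdT+ and at 743, 917, 795 and 917 in tdT- (-0.51 ± 0.11, adjusted p = 0.0454). These 3 genes had non-overlapping fractions.

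*Jun* and *Zfp36* passed the test with fractions that touched. *Jun* was at 449, 457, 441 and 577 CPM in tdT+ and 661, 928, 548 and 877 in tdT-, with 1 tdT+ value above the lowest tdT- value (-0.62 ± 0.11, adjusted p = 0.0253). *Zfp36* was at 40.1, 43.6, 66.2 and 40.0 CPM in tdT+ and 65.6, 91.1, 85.3 and 84.8 in tdT- (-0.79 ± 0.17, adjusted p = 0.0493). *Fos* was at 541 to 717 CPM in tdT+ and 731 to 1179 in tdT-, and just missed the threshold (-0.62 ± 0.14, adjusted p = 0.0545). *Junb* (-0.61 ± 0.14, 0.0639), *Jund* (-0.42 ± 0.10, 0.0748), *Ier2* (-0.48 ± 0.14, 0.117) and *Fosb* (-0.27 ± 0.11, 0.263) missed it as well, the second value being the adjusted p.

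**Figure D4:**
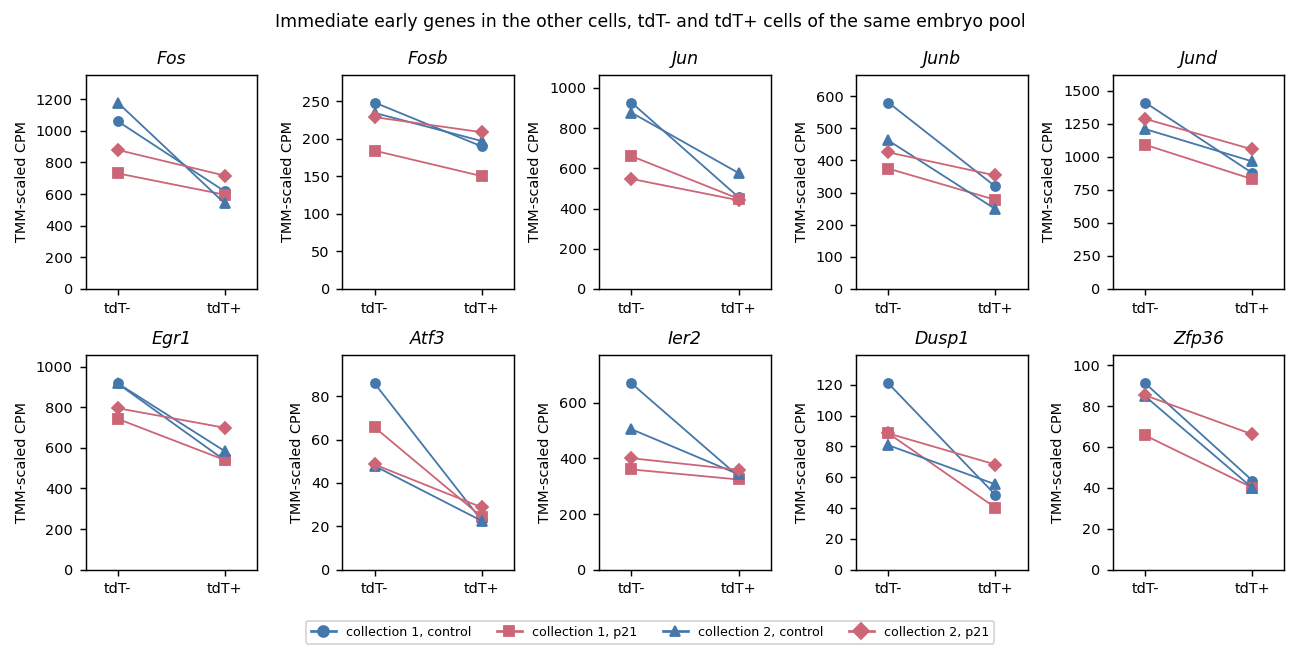
Levels in the other cells in TMM-scaled CPM (linear axes from 0), with a line joining the tdT- and tdT+ cells of the same embryo pool. Blue lines are control and red lines p21 pools, and marker shapes give the collection and condition. For each of the 10 genes, all 4 lines fall from tdT- to tdT+.

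Since both fractions of a pool came from the same embryos, the fit was repeated with the embryo pool as a replicate block. It called 8 members, all lower (all but *Ier2* and *Fosb*), and 441 genes. The call rested on few sums. Without the p21 or without the Ctl cells of S1 no member passed, and 52 and 24 genes were called. With the block and each sum left out in turn, between 2 and 7 members passed. *Atf3* was among them each time.

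The makeup of the other cells, pooled over the libraries of a fraction, also differed between the fractions. Immune-like cells were 0.188% of the tdT+ and 5.29% of the tdT- other cells, muscle-like cells 1.22 and 3.71%, tenocyte-like cells 3.85 and 13.3%, perichondrium- or groove-like cells 28.3 and 13.7%, and osteoprogenitor-like cells 4.22 and 1.125%. Several of these shares rested on 1 library. Of the 47 tdT- immune-like cells 43 were p21 cells of S4, where Ctl had 0. S4 also held 30 of the 33 muscle-like and 97 of the 118 tenocyte-like tdT- cells. S3 held 37 of the 45 tdT+ osteoprogenitor-like cells, while perichondrium- or groove-like cells came from every library. Of the 9 types ranked, perichondrium- or groove-like cells had the lowest mean *Jun*, *Junb*, *Jund*, *Atf3* and *Dusp1*. Osteoprogenitor-like cells, measured in S3 alone and not ranked, were lower there for *Jun* (187 beside 351 CPM). The 7 immune markers summed to 3.61 to 3.88 CPM in tdT+ and 7.52 to 145 in tdT- sums, with *C1qa* at 0 in 4 of 4 tdT+ sums. The 7 muscle markers summed to 22.5 to 72.7 and 6.6 to 480 CPM, and the 6 erythroid markers to 3.29 to 5.87 and 12.9 to 52.8. Markers of interzone cells, the type highest in *Dusp1* and *Fosb*, summed to 302 to 408 CPM in tdT+ and 449 to 643 in tdT- sums. Glial markers summed to 7.92 to 14.2 and 15.9 to 32.4, and those of stromal fibroblasts to 2003 to 2299 and 1430 to 1948. The muscle sums overlapped between the fractions, and the other 5 of these lists did not. With named connective-tissue clusters alone, all 10 members stayed lower in tdT+ and 3 passed (*Fos*, *Junb* and *Atf3*), beside 192 of 12976 genes. With the block 5 members passed, beside 304 genes. Within stromal fibroblast-like cells alone, or perichondrium- or groove-like cells alone, all 10 were lower and none passed, in fits that called 3 and 4 genes. In barcodes under 1000 UMIs, which were not tested for being empty droplets, the members summed to 4833 CPM in S1 and 4271 in S3, beside 4790 in S2 and 5097 in S4. The part of makeup and of free RNA in the lower level was not tested.

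Within single types the direction was shared by the main tissues outside cartilage. In the 3 embryo pools with at least 20 stromal fibroblast-like cells in both fractions, 8 members were lower in tdT+ in 3 of 3 pools. *Jund* and *Zfp36* were lower in 2. In perichondrium- or groove-like cells 7 members were lower in 3 of 3 pools, and *Fosb*, *Egr1* and *Atf3* in 2. In the 1 pool with enough interzone-like cells, *Atf3* and *Jund* were lower in tdT+ and the other 8 were not. Cartilage types were mixed. In the *Sox5* and *Sox6* cluster, *Fosb*, *Junb* and *Zfp36* were lower in tdT+ in 3 of 3 pools, *Egr1* and *Atf3* in 2 and the other 5 in 1. The single pool with enough resting chondrocyte-like cells had all 10 lower, and the single pool with enough proliferative ones had none lower.

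In chondrocyte-like cells as a class, 5 members had a lower and 5 a higher fitted level in tdT+, with a median of 0.00 beside 0 for all genes. None passed (0.0271% of all genes did, 3 of 11071), and 0 members had an unadjusted p under 0.05, beside 3.98% of all genes. *Dusp1* had the lowest p (-0.18 ± 0.21). DESeq2 called no member either. The tdT+ effect, chondrocyte-like minus other cells, was positive for all 10 members, from 0.29 ± 0.15 for *Fosb* to 1.49 ± 0.54 for *Atf3*. None passed the adjusted threshold (lowest 0.35, *Zfp36*), beside 0.0221% of all genes, so the fractions were not shown to differ between the classes. At an unadjusted p under 0.05 it was 9 of 10, beside 7.01% of all genes.

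Between the collections no member passed in either class. In chondrocyte-like cells *Fos* was higher in collection 2 (0.35 ± 0.09, unadjusted p = 0.00245, adjusted p = 0.618), with 1253 to 1761 CPM in collection 1 and 1581 to 2496 in collection 2. No gene was called there by edgeR (0%), and 10 were by DESeq2, no member among them. *Fos* was the 1 member at an unadjusted p under 0.05, beside 7.01% of all genes. In the other cells the 10 members ran from -0.28 ± 0.18 for *Atf3* to 0.22 ± 0.17 for *Zfp36*, beside 1 call among 13826 genes (0.00723%), and 0 members had an unadjusted p under 0.05, beside 4.59% of all genes. That call was *Hspa1b*, an inducible chaperone that answers heat and other protein stress, which fell by 1.45 on the log2 scale in collection 2 (± 0.14 SE, adjusted p = 0.0235).

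Apart from *Hspa1b* between the collections, the calls in the other pathway lists fell in p21 against Ctl chondrocyte-like cells and in tdT+ against tdT- other cells. Of 34 other immediate early genes tested in chondrocyte-like cells, 3 fell in p21 and none rose: *Klf2* (-0.72 ± 0.11, adjusted p = 0.01), *Klf6* (-0.92 ± 0.15, 0.0129), both Krüppel-like factors, and *Rhob* (-0.69 ± 0.12, 0.0246), a small GTPase. Their list median was 0.02, so the 34 did not share a direction. In the other cells 6 of 36 fell in tdT+ and none rose, with a median of -0.45, led by *Myc* (-0.79 ± 0.12, 0.0156), *Trib1* (-1.18 ± 0.18, 0.0156) and *Klf10* (-0.77 ± 0.14, 0.0319).

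Among targets of serum response factor and YAP, *Ccn2*, a matricellular growth factor, fell in p21 chondrocyte-like cells (-1.60 ± 0.17, adjusted p = 0.00097), as 1 of 12 tested. In tdT+ other cells 3 of 14 fell, namely *Ccn2* (-0.95 ± 0.14, 0.0119), *Ccn1* (-0.62 ± 0.12, 0.0417) and *Acta2* (-1.96 ± 0.38, 0.0367), a smooth muscle actin also made by developing muscle. Of 17 bZIP partners of AP-1, 1 fell in p21 chondrocyte-like cells (*Creb5*, -0.61 ± 0.13, 0.0492) and none in tdT+ other cells (*Creb5*, -0.63 ± 0.15, adjusted p = 0.0786, and *Atf4*, -0.31 ± 0.08, 0.105). Of 17 targets of ERK feedback, 1 fell in tdT+ other cells (*Spry2*, -0.74 ± 0.09, 0.00691). In p21 chondrocyte-like cells none of 14 passed (*Dusp6*, -0.82 ± 0.26, adjusted p = 0.213, and *Spred2*, -0.60 ± 0.20, 0.248).

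None of 25 upstream kinases and factors passed in any comparison, and in p21 chondrocyte-like cells the lowest p were of *Egfr* (0.44 ± 0.18, adjusted p = 0.396) and *Mapk8* (-0.28 ± 0.12, 0.421). Of the AP-1-linked matrix and protease genes, *Lgals3* fell (-1.74 ± 0.28, 0.0212) and *Mmp9* rose (1.05 ± 0.20, 0.0357) in tdT+ other cells, 2 of 8. In p21 chondrocyte-like cells none of 7 passed (*Mmp14*, 0.24 ± 0.12, 0.504, and *Timp1*, -0.25 ± 0.21, 0.727).

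The heat shock genes encode chaperones that answer heat and damaged proteins. In p21 chondrocyte-like cells 11 of 14 had a lower fitted level, with a median of -0.28, and 1 passed (*Hsph1*, -1.34 ± 0.24, adjusted p = 0.0257). In tdT+ other cells 14 of 15 had a lower fitted level and none passed (*Hspb1*, -1.49 ± 0.39, adjusted p = 0.0957, and *Hspa8*, -0.32 ± 0.09, 0.109). *Hspa1a* was at 260.5, 129.9, 19.3 and 26.9 CPM in p21 and at 598, 439, 424 and 648 in Ctl, and the groups did not overlap (-2.48 ± 0.62, adjusted p = 0.107). Like *Jun*, it was lower in collection 2 (-4.53 ± 0.33) than in collection 1 (-1.37 ± 0.30), with a difference of -3.16 ± 0.43 (adjusted p = 0.0173), and *Hspa1b* gave -3.15 ± 0.28 (adjusted p = 0.000534). Median UMIs per cell were 18290.5 to 29533.5 in p21 and 12805 to 26912 in Ctl chondrocyte-like sums, and mean mitochondrial shares reached 3.22 and 4.05%. Cell-cycle genes summed to 2960 to 3780 CPM in p21 and 3164 to 4786 in Ctl. Their part in the lower level of *Jun* and *Fos* was not tested.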

How the data were processed

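Single-cell RNA-seq (10x Genomics 3′ v3.1) was made from 4 sorted libraries of E14.5 mouse hindlimbs. The authors counted reads with Cell Ranger 7.2.0 on GRCm38/mm10 with transgene sequences added, and the deposited values are raw UMI counts per gene and barcode. Whether introns were counted is not given in the sources used here, and no correction for free RNA was seen in the counts.

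From these counts, barcodes with at least 1000 UMIs, 500 genes and at most 10% mitochondrial UMIs were kept. The labels give the sorted fraction and collection. Condition was taken from sex transcripts (at least 2 UMIs, 80% of one sex) by the pairing in the study's methods, and barcodes with no or mixed calls were left out. Of the 706, 772, 1483 and 3912 barcodes of S1 to S4 within the limits, 178, 349, 455 and 2747 had no call. Mixed calls numbered 46, 40, 59 and 132. The 5% highest Scrublet scores among cells from 3000 UMIs were removed. Cells were clustered by scanpy 1.11.5 (30 components, Leiden resolution 1).

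Counts were summed per class, library and condition (844137 to 12371758 UMIs) and tested with edgeR 4.0.16 (quasi-likelihood, TMM, filterByExpr), adjusted by Benjamini-Hochberg over all genes tested. The p21 fits had the fraction as covariate, and the fraction fits the condition. Fractions of a pool came from the same embryos, and their deviations correlated at 0.107 to 0.337 in the other cells. DESeq2 1.42.0 and limma 3.58.1 (voom) were alternatives. Scripts were tested on simulated data. All 10 members are named, with *Cdkn1a* and *WPRE*, and up to 3 called genes of a pathway list, or the 2 with the lowest p. Members and lists were chosen with earlier results of these data known. Counting error and the spread between sums are what the errors cover.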

Additional observations from a re-analysis of the deposited data

Results flagged for a closer look

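The p21 effect on *Jun* in chondrocyte-like cells differed between the collections by -1.48 on the log2 scale by the interaction test, and collection, sex and embryo cannot be told apart there.

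In 6 of 80 groups of 4 sums, 1 sum stood apart by Dixon's test, which flags about 1 in 20 groups by chance. In chondrocyte-like cells these were *Zfp36* in the p21 cells of S2 (134.6 CPM, nearest of the p21 group 152.8), *Fos* in the Ctl cells of S4 (2435, nearest of the tdT- group 1671), *Junb* in the p21 cells of S2 (706.6, nearest of the tdT- group 774.9) and *Ier2* in the p21 cells of S4 (542, nearest of the tdT- group 775.7). In other cells of the tdT+ group they were *Jun* in the Ctl cells of S3 (577.1, nearest 456.7) and *Zfp36* in the p21 cells of S3 (66.19, nearest 43.61).

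Barcodes left out of all comparisons also held the members. Those under 1000 UMIs summed to 4833, 4790, 4271 and 5097 CPM over the 10 genes in S1 to S4, and those with no sex call to 5147, 5471, 5689 and 5805, beside 4609, 6490, 5091 and 6159 in the kept cells.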

How the results depend on the processing

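Of 1400 member values recomputed under the alternatives, 1192 kept their direction and side of the threshold, 71 kept the direction and lost the call, 46 gained one and 91 turned sign. None of the 91 was in the tdT+ against tdT- comparison of other cells. Depth limits *Atf3*, *Dusp1* and *Zfp36* most, since they have the fewest counts. Except where stated, the cause of a change was not tested. Alternatives on which clusters form a class, the block with a sum left out and the *Jun* difference between collections were chosen after seeing the data. The embryo-pool replicate block called 8 members and 441 genes between the fractions of the other cells and 6 genes in chondrocyte-like cells, and changed no member's call in chondrocyte-like cells. The library replicate block, which pairs the p21 and Ctl cells of 1 library (correlations of -0.0379 to 0.0637 in chondrocyte-like and 0.0484 to 0.231 in other cells), gave 77 calls for p21 in chondrocyte-like cells, changed no member's call and turned *Atf3* in other cells to 0.03.

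Genes called by DESeq2 were 165 for p21 in chondrocyte-like cells, 11 in other cells and 38 for their difference, 9 and 491 between fractions, and 10 and 22 between collections, with 9 members between fractions of the other cells. Limma-voom called 6 genes for the difference of the p21 effects, where *Dusp1* turned to -0.03 and *Zfp36* to -0.01, and *Jund* turned to 0.01 between fractions of chondrocyte-like cells. Without the filter on low counts the calls in the same order were 471, 346, 298, 167, 1361, 157 and 63 genes. The members called were then 5, 1 and 1 for p21, 9 between fractions of other cells and 3 between collections in chondrocyte-like cells, where *Fosb* turned to 0.01. With the fractions of a pool summed, p21 gave 30, 0 and 8 calls. Without the fraction term, p21 and collection gave 0 calls each in other cells.

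With the stricter sex call p21 gave 0 calls in other cells, the fractions 1 and 135 calls with 2 members, and *Fosb* and *Ier2* turned to -0.03 between fractions of chondrocyte-like cells. With high Scrublet scores kept, 195 genes with 3 members were called between fractions of other cells and 0 genes between collections there. *Atf3* turned to 0.03 for p21 in other cells, *Dusp1* to -0.02 for the difference of p21 effects, *Junb*, *Jund* and *Zfp36* to 0.01, 0.03 and 0.01 between fractions of chondrocyte-like cells and *Jun* to 0.03 between collections in other cells. At resolution 0.5 there were 50 calls for p21 in chondrocyte-like cells, and 1 and 68 between fractions with 1 member. *Zfp36* turned to -0.12 for the difference of p21 effects, *Egr1*, *Atf3* and *Ier2* to -0.04, -0.10 and -0.03 between fractions of chondrocyte-like cells and *Jun* to 0.02 between collections in other cells.

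With the unnamed cartilage-marker clusters added to the chondrocyte-like cells, 2 genes were called for the difference of p21 effects. *Fosb* turned to 0.04 for p21, *Zfp36* to -0.13 for that difference, *Fosb*, *Jun*, *Egr1* and *Ier2* to -0.07, -0.08, -0.05 and -0.16 between fractions and *Fosb* to 0.03 between collections. With them left out of the other cells, 196 genes with 3 members were called between fractions, *Junb* turned to 0.05 and *Atf3* to 0.01 for p21, and *Zfp36* to -0.14 for the difference. With connective-tissue clusters alone, p21 and collection gave 0 calls each and the fractions 192 genes with 3 members. *Zfp36* turned to -0.13 for p21, and *Jun*, *Junb* and *Ier2* to 0.04, 0.05 and 0.10 between collections. Stromal and perichondrium clusters alone gave 0 members each, with 3 and 4 genes.

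Leaving out each sum in turn gave 31 to 73 genes and 0 to 1 members for p21 in chondrocyte-like cells (*Ier2* without S2 p21, *Egr1* without S2 Ctl), 1 to 2 genes in other cells and 0 to 10 for the difference. Between fractions it gave 1 to 8 genes in chondrocyte-like cells, and 24 to 259 genes with 0 to 8 members in other cells. With the embryo-pool block as well it gave 190 to 288 genes with 2 to 7 members, and 3 members when a Ctl sum of collection 1 was left out. Between collections 0 to 2 genes were called in other cells. For p21 in chondrocyte-like cells *Fosb* ran from -0.09 to 0.03, *Dusp1* from -0.32 to 0.19 and *Zfp36* from -0.05 to 0.25. In other cells *Junb* ran from -0.23 to 0.01, *Jund* from -0.14 to 0.01, *Atf3* from -0.13 to 0.22, *Dusp1* from -0.25 to 0.10 and *Zfp36* from -0.13 to 0.19. For the difference *Fosb* ran from -0.03 to 0.28, *Junb* from -0.23 to 0.21, *Jund* from -0.13 to 0.23, *Ier2* from -0.36 to 0.04, *Dusp1* from -0.19 to 0.32 and *Zfp36* from -0.26 to 0.21. Between fractions of chondrocyte-like cells *Fos* ran from -0.22 to 0.01, *Fosb* from -0.04 to 0.08, *Jun* from -0.15 to 0.35, *Jund* from -0.11 to 0.09, *Egr1* from -0.03 to 0.17, *Atf3* from -0.07 to 0.75, *Ier2* from -0.05 to 0.16, *Dusp1* from -0.47 to 0.04 and *Zfp36* from -0.15 to 0.15. Between collections *Fosb* ran from -0.09 to 0.06, *Jund* from -0.23 to 0.04 and *Dusp1* from -0.01 to 0.37 in chondrocyte-like cells, and *Jun* from -0.14 to 0.09, *Junb* from -0.21 to 0.11, *Ier2* from -0.16 to 0.15 and *Dusp1* from -0.09 to 0.29 in other cells. The *Jun* difference between collections stayed called under every alternative run, from -1.66 to -1.32, while *Atf3* was called by DESeq2, with the stricter sex call, without the filter on low counts and without the p21 cells of S2.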
